A study of Homo sapiens with 2 samples.

Results

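The genes examined were the 7 ligands of the epidermal growth factor receptor (AREG, EREG, BTC, TGFA, HBEGF, EGF and EPGN) and the 2 proteases best known for releasing them from the cell surface (ADAM10 and ADAM17). They were taken by symbol from the 27685 genes listed, and all 9 were found, with 23 of the 63714 listed transcripts. RNA had been sequenced from 1 library of H2087 cells and 1 library of H596 cells, established human lung cancer cell lines that are both labelled lung adenocarcinoma. Both lines were untreated and were grown in RPMI medium with fetal bovine serum and antibiotics. The deposited values were an estimated read count and an FPKM (fragments per unit of transcript length and of library size) for each gene and transcript. With 1 library for each line no value has a replicate check, no test between the lines was possible, and every interval given below is a 95% interval that covers counting error only. The intervals take each count as an independent draw. Whether the counts are of fragments or of single mates is not stated, and mates would make the intervals too narrow.

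The receptor EGFR is a tyrosine kinase that is switched on when a ligand joins it to a partner receptor of the same family. Each ligand is made as a precursor that spans the membrane, with an EGF-like domain outside the cell that binds the receptor. A metalloprotease cuts the precursor near the membrane and frees the domain. ADAM17 is regarded as the main sheddase of AREG, EREG, TGFA and HBEGF, and ADAM10 as that of EGF and BTC. In lung epithelium and in lung tumours these ligands act on the cell that makes them and on its neighbours.

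What the 7 ligands share is the EGF-like domain, so its coding sequence is shown for each, 5′ to 3′ on the coding strand, with the codons of the 6 conserved cysteines in capitals. The sequences were read from GRCh37, the build of the deposited tables, with GENCODE release 44 exons, and in every ligand the stretch was split over 2 coding exons.
EREG, chr4:75246778-75248392, plus strand: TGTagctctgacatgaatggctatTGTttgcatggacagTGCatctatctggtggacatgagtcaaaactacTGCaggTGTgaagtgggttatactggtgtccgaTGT
AREG, chr4:75314889-75316127, plus strand: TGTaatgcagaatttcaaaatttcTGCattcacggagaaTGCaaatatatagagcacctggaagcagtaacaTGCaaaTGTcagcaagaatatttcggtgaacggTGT
EPGN, chr4:75177946-75178765, plus strand: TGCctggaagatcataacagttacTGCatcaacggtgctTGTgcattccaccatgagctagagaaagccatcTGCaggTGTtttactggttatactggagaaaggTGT
BTC, chr4:75675899-75681145, minus strand: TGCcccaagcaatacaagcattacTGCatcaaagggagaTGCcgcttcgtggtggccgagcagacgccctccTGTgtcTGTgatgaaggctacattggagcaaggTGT
EGF, chr4:110915957-110920865, plus strand: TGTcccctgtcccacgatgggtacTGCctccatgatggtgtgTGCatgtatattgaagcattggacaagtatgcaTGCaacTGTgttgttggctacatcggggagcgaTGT
TGFA, chr2:70683590-70692824, minus strand: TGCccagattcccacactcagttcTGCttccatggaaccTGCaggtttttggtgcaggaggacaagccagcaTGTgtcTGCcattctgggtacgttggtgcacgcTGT
HBEGF, chr5:139715582-139722296, minus strand: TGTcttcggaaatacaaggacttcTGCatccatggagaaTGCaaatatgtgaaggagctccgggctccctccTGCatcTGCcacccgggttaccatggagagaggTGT

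The stretch encodes 37 residues in EGF and 36 in each of the other ligands. Across the 21 pairs of ligands the encoded residues were 30.6% to 52.8% identical, with a median of 40.5%. The search required the 6 cysteines, so these are shared by construction. The most alike pairs were AREG with HBEGF and BTC with TGFA, both at 52.8%, and the least alike was AREG with BTC. AREG and EREG, whose levels are described next, were 33.3% identical. The precursors differ far more in size, from 154 residues in EPGN to 1207 in EGF.

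Both sheddases carry the metal-binding stretch of the protease domain, which is shown with its histidine codons in capitals. It was found by the spacing of its histidines, so the same spacing in both was set by the search. In ADAM10 it is split over 2 coding exons.
ADAM10, chr15:58920080-58925424, minus strand: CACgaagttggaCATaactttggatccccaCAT
ADAM17, chr2:9650207-9650239, minus strand: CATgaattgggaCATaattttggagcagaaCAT

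The total estimated count was 46961500 in H2087 and 55387847 in H596. The label of lung adenocarcinoma was met by the markers in H2087 and only in part in H596. Of 6 adenocarcinoma markers, 5 reached an FPKM of 1 in H2087 and 2, KRT7 and KRT18, in H596, where NKX2-1 was at 0.508 against 109.99 in H2087. SFTPB was near absent from both, with 22 counts in H2087 and 0 in H596. Of 5 squamous markers, 2 reached this level in H2087 and 5 in H596, with a summed FPKM of 40.8 and 305. In H2087 most of the sum was SOX2, at 39.1, which was at 56.5 in H596. KRT6A was at 1.48 and TP63 at 0.183 in H2087, where KRT5 and DSG3 had 0 counts. In H596 the 5 squamous markers ranged from 33.9 to 106. All 3 epithelial markers were above 50 in both, and of 3 leukocyte markers PTPRC and CD3E had 0 counts in both, while CD68, which encodes a lysosomal protein, was at 128 and 25.6. Of 5 stromal markers, 1 reached an FPKM of 1 in each library, COL1A1 at 3.89 in H2087 and DCN at 9.77 in H596, and both endothelial markers were below 1. Whatever differs between the lines, these markers included, cannot be told apart from the line itself with 1 library each, and the part of the markers in the differences given next was not tested.

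In H2087 the ligand RNA was mostly that of EREG and AREG, and in H596 it was mostly that of TGFA and AREG, at a much lower total. Added up, the 7 ligand genes reached an FPKM of 198 in the H2087 library and 29.9 in the H596 library, a 6.62-fold lower sum in H596. EREG and AREG together made up 88.0% of the sum in H2087 and 35.4% in H596. Without them the other 5 ligands came to 23.8 and 19.3, so the lower sum in H596 lay almost wholly in EREG and AREG. In such cultures a lower level can reflect fewer cells with the transcript or less of it per cell, and these cannot be told apart.

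EREG encodes epiregulin, a ligand that binds EGFR and ERBB4. Its single listed transcript, NM_001432, lies on chromosome 4 of hg19 from 75230860 to 75254477. In H2087 it had an FPKM of 99.3 (95% interval, 98.0 to 100.6) from 22024 counts, and it ranked 716 among all genes. In H596 it had an FPKM of 0.0533 (0.0323 to 0.0880) from 15 counts. EREG was thus the highest ligand of H2087 in the gene table and a trace in H596, 1862-fold lower (1129 to 3328). An FPKM of 100 was the level at which genes were taken forward in the study's SNP selection, and the counting interval of EREG reached across it.

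AREG encodes amphiregulin, a heparin-binding ligand of EGFR. The gene table listed an FPKM of 75.0 (72.9 to 77.2) from 4587 counts in H2087. It listed one of 10.5 (9.81 to 11.3) from 763 counts in H596. AREG was therefore 7.12-fold lower in H596 (6.60 to 7.70), but unlike EREG it was still well above the limit of detection there.

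EGF, the ligand that gave the family its name, was low in H2087, with an FPKM of 3.23 (3.02 to 3.45) from 875 counts. In H596 it had one of 0.139 (0.104 to 0.186) from 45 counts, which is 23.2-fold lower (17.2 to 32.1). In H2087 its reads were divided over NM_001963, NM_001178131 and NM_001178130, with 57.9%, 26.6% and 15.5% of the FPKM of the gene. In H596 all 45 counts were given to NM_001963, and the other transcripts had 0 counts, which allows up to 3 counts each.

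EPGN, which encodes epithelial mitogen (epigen), was the only ligand whose higher level in H596 exceeded counting error. It had an FPKM of 4.01 (3.70 to 4.34) from 594 counts in H596 and one of 0.0299 (0.0116 to 0.0768) from 4 counts in H2087, a 134-fold difference with an interval of 52.1 to 494. In H596 the reads were spread over 7 listed transcripts, of which NM_001270989 had 32.8% of the FPKM and NM_001270990 26.6%. The 4 counts in H2087 were all given to NR_073114, a noncoding transcript that held 7 counts in H596.

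TGFA, BTC and HBEGF differed less. TGFA, which encodes transforming growth factor alpha, stood at an FPKM of 14.4 (13.9 to 14.9) from 2990 counts in H2087 and 10.7 (10.3 to 11.1) from 2631 counts in H596, a 1.35-fold lower level in H596 (1.28 to 1.42). BTC, which encodes betacellulin, had one of 4.04 (3.71 to 4.39) from 538 counts in H2087 and 2.42 (2.19 to 2.68) from 381 counts in H596, 1.67-fold lower (1.46 to 1.90). HBEGF, a heparin-binding ligand that also serves as the diphtheria toxin receptor, had 2.06 in both libraries, from 233 counts in H2087 (1.81 to 2.34) and 276 in H596 (1.83 to 2.32). The differences of TGFA and BTC exceeded counting error, whereas the ratio of HBEGF, 1.001 in H596 over H2087, had an interval of 0.838 to 1.20.

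The listed transcripts of TGFA and BTC were found in both libraries, in proportions that differed somewhat. For TGFA, NM_001099691 and NM_003236 held 48.1% and 40.4% of the FPKM in H2087, against 40.9% and 45.5% in H596, so their order was reversed although their intervals overlapped in H596, and the other 2 transcripts each held under 8% in both. For BTC, NM_001729 was the higher transcript, with 74.9% in H2087 and 64.8% in H596, and NM_001316963 held 25.1% and 35.2%. How reads were divided between transcripts that share exons is an estimate whose error the intervals do not cover.

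ADAM10 was higher in H596 and ADAM17 was at about the same level in both lines. ADAM10, on chromosome 15 from 58887403 to 59042177, had an FPKM of 29.1 (28.5 to 29.8) from 7023 counts in H2087 and 79.2 (78.2 to 80.2) from 22617 counts in H596, which is 2.72-fold higher (2.65 to 2.79). Of this, NM_001110 held 94.6% in H2087 and 98.2% in H596. The other transcript, NM_001320570, was at 1.57 in H2087 and 1.41 in H596, with overlapping intervals. ADAM17, on chromosome 2 from 9628615 to 9695949, had an FPKM of 16.1 (15.5 to 16.6) from 3374 counts in H2087 and 15.4 (14.9 to 15.9) from 3822 counts in H596, and the interval of the ratio of H2087 over H596, 0.998 to 1.10, included 1. ADAM17 overlaps IAH1, which was at 34.8 in H2087 and 28.3 in H596. The level of ADAM10 was 1.81 times that of ADAM17 in H2087 and 5.15 times in H596.

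**Figure D1:**
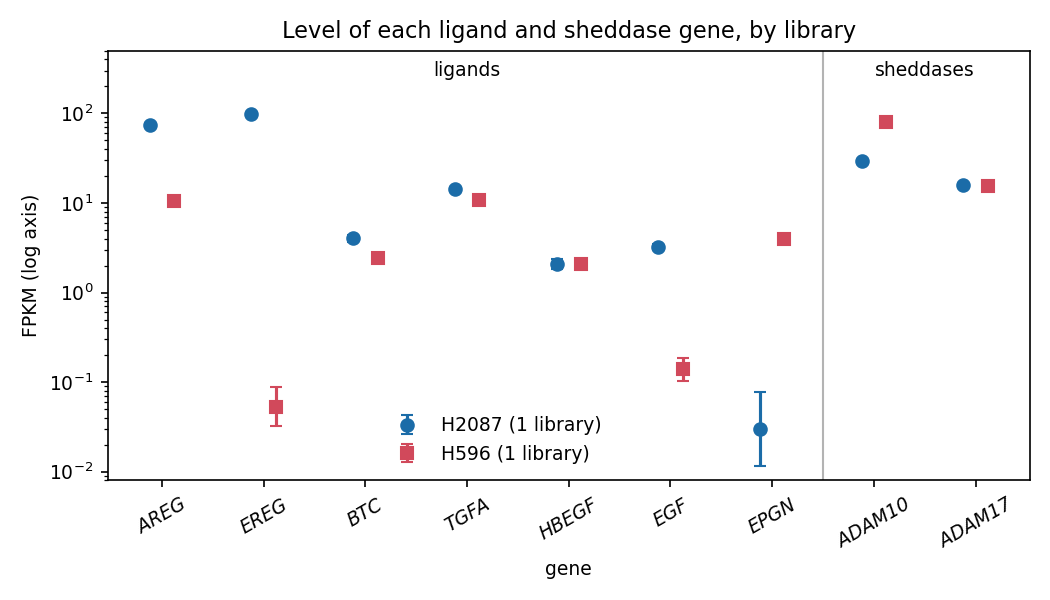
FPKM on a log axis of each ligand and sheddase gene in the H2087 library (circles) and the H596 library (squares), 1 library each, with 95% counting intervals as bars where they exceed the symbol. EREG spans from 99.3 to 0.0533, EPGN goes the other way from 0.0299 to 4.01, and HBEGF and ADAM17 lie side by side.

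The order of the levels therefore differed between the lines. The levels ranked here are those of the gene table, which leaves out the second annotated copy of AREG. In H2087 it ran EREG, AREG, ADAM10, ADAM17, TGFA, BTC, EGF, HBEGF and EPGN, and the intervals of neighbours in this order did not overlap. In H596 it ran ADAM10, ADAM17, TGFA, AREG, EPGN, BTC, HBEGF, EGF and EREG. There the intervals of TGFA and AREG overlapped, as did those of BTC and HBEGF, so their order in the gene table is within counting error. With both AREG copies summed, as given below, AREG was at 136 in H2087, above EREG. The sum was 19.2 in H596, above TGFA and ADAM17. Whether the copies share reads is not stated. A sheddase was the highest member in H596 and 2 ligands were the highest in H2087.

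On the scale of log2(FPKM + 1), on which changes of low genes are understated, a member was called when it differed by at least 2-fold. By this rule EPGN and ADAM10 were higher in H596, by 2.28 and 1.41, so 2 of the 9 members were called in this direction, against 18.2% of the 13047 genes whose FPKM averaged 1 or more over the libraries. EREG, AREG and EGF were lower, with differences of -6.57, -2.72 and -1.89, which is 3 of the 9 against 14.2% of those genes. The other 4 members, TGFA, BTC, HBEGF and ADAM17, were not called. All 9 passed this filter, but EREG, EGF and EPGN passed it only through the line in which they were high. The median difference of the 9 members was -0.40, beside 0.12 for all 13047 genes, and with 9 genes these counts and medians are given as a description.

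**Figure D2:**
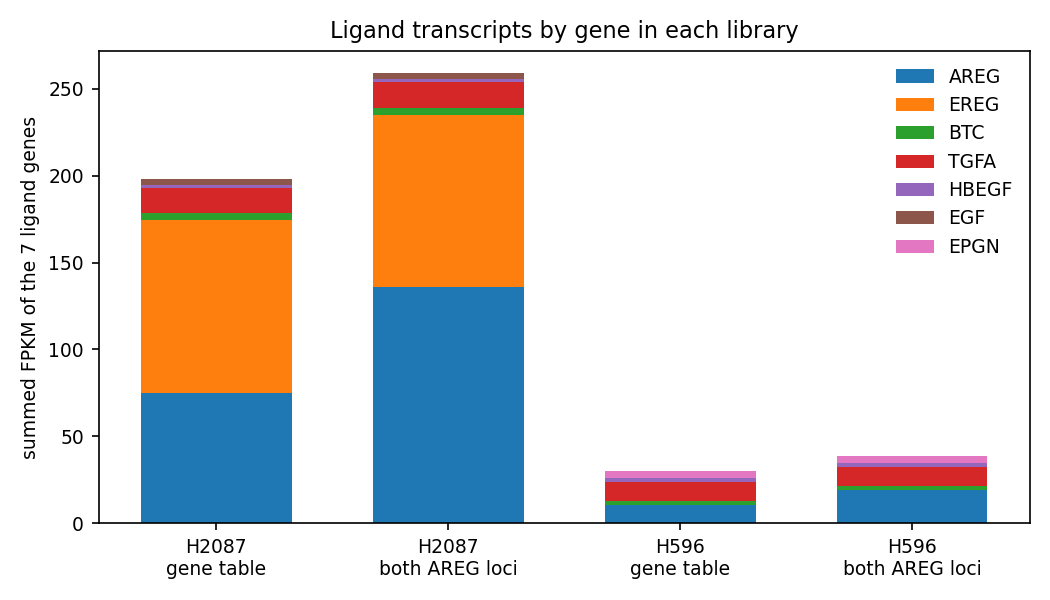
Summed FPKM of the 7 ligand genes in each library, stacked by gene, from the gene table and with AREG summed over its 2 annotated loci. The sum is 198 in H2087 and 29.9 in H596 in the gene table, and 259 and 38.5 with both loci.

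The AREG value depends on how the table treats its copies. In hg19 the gene is annotated at 2 places on chromosome 4, with 159864 bases between them. The transcript table gave the copy at 75310815 to 75320726 the FPKM that the gene table lists, and it gave the copy at 75480591 to 75490485 a further 61.0 (59.0 to 62.9) from 3729 counts in H2087 and 8.62 (7.97 to 9.32) from 625 counts in H596. The ratio between the copies was nearly the same in both libraries, 1.23 in H2087 and 1.22 in H596. The copies can hardly be told apart by reads: over the 6 exons, 1234 bases, the reference differed at a single position of the shared length, G240A, counted from 1 at the 5′ end of exon 1 with the first copy before the number. The EGF-like coding stretch of AREG was identical at both places. Over the whole locus of 9912 bases the copies were 99.6% identical. In the GRCh38.p14 gene table of RefSeq 1 row is named AREG and 0 are named AREGB, so the later build lists a single gene.

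Summing both copies gave AREG an FPKM of 136 (133 to 139) in H2087 and 19.2 (18.2 to 20.2) in H596, unless the same reads were counted at both places, which is not stated. With this sum AREG, not EREG, was the highest ligand in H2087, at 1.37 times the level of EREG. In H596 the sum put AREG above TGFA and ADAM17 by more than counting error. The comparison between the lines hardly moved, since AREG was 7.10-fold lower in H596 with both copies and 7.12-fold lower with the listed one.

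EPGN, EREG, AREG and BTC lie together on chromosome 4, in this order within 545.7 kb from 75174187 to 75719896, with no other gene listed between them. EGF is on the same chromosome but far away, from 110834040 to 110934235. Within the cluster EPGN differed by 2.28 and the genes that follow it went the other way, EREG by -6.57, AREG by -2.72 and BTC, which was not called, by -0.56. The 5 genes listed on each side, CXCL5, CXCL3, PPBPP2, CXCL2 and MTHFD2L before EPGN and PARM1, LOC100507388, LINC02483, RCHY1 and THAP6 after BTC, differed by -0.44 to 0.42. Of these 10, 0 were called in either direction, and 4 had at most 3 counts in both libraries. Of all tested genes, 18.2% were called higher and 14.2% lower in H596. With so few genes, 0 calls therefore says little about where the differences end. MTHFD2L, which ends 5.4 kb before EPGN, was at an FPKM of 3.34 and 3.88 in H2087 and H596.

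**Figure D3:**
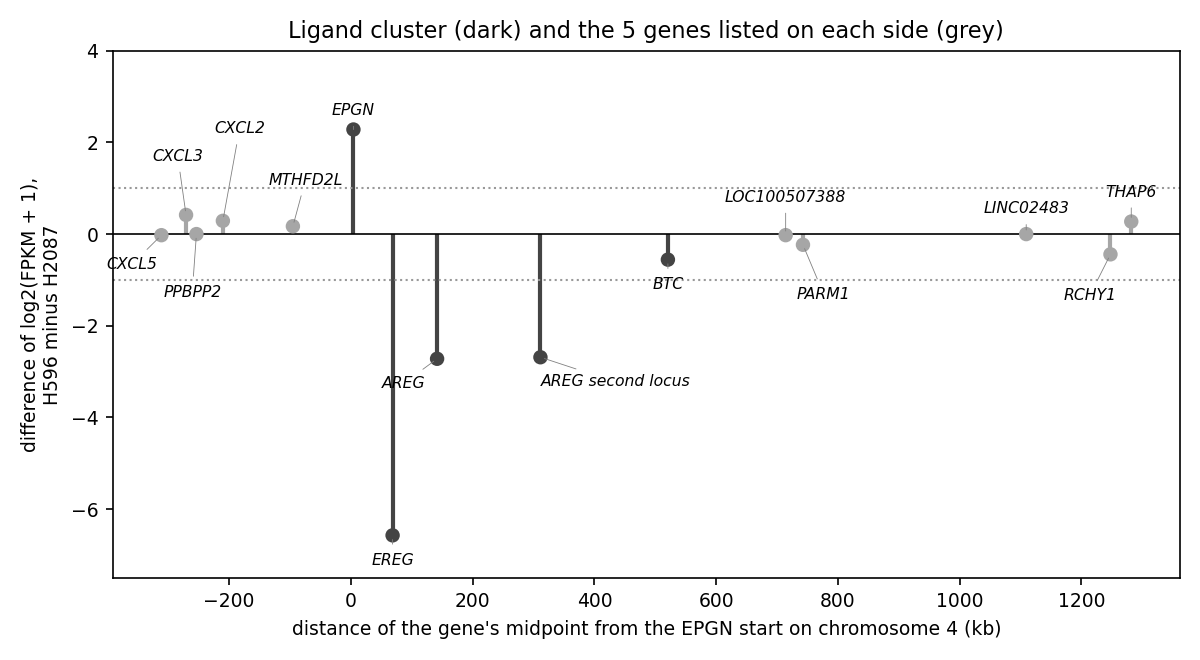
Difference of log2(FPKM + 1), H596 minus H2087, for the ligand genes of chromosome 4 (dark, with both AREG loci) and the 5 listed genes on each side (grey), against the distance of each midpoint from the EPGN start in kb. EPGN stands at 2.28 and EREG at -6.57, while the grey genes lie between -0.44 and 0.42; dotted lines mark a 2-fold difference.

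For the 3 members of this cluster that were called, the 150 bases before the annotated start are shown, since these genes lie near each other and differed at least 2-fold. The sequences and starts are those of RefSeq on GRCh38.p14, where all 9 members were matched, and the capitals mark TATAAA (the TATA box), TGACGTCA (the cyclic AMP response element) and CCAAT or its reverse complement ATTGG.
EREG, chr4:74364995-74365144, plus strand: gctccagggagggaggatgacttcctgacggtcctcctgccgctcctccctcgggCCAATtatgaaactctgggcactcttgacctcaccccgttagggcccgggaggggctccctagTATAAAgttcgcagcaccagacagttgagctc
AREG, chr4:74444986-74445135, plus strand: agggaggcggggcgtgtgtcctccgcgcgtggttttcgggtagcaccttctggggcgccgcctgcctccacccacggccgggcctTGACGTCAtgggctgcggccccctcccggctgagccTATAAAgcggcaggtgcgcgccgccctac
EPGN, chr4:74308320-74308469, plus strand: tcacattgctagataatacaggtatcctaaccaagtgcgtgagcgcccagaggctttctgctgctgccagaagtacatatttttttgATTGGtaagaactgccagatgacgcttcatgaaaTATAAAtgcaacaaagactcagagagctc

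All 3 windows held TATAAA, beginning at position -29 from the start in AREG and EPGN and at -32 in EREG, and it was in the 250 bases before the start of 0 other members. On either strand TATAAA was found in 10.7% of 35116 such windows. TGACGTCA, at -65 in AREG, was in 1.65% of them, and CCAAT in 32.0%. The other motif searched for, TGAGTCA or its reverse complement TGACTCA (the AP-1 site), was in 4.20% of windows and among the members in EGF, at -17. EREG and AREG, lower in H596, and EPGN, higher in H596, thus shared the TATAAA letters at nearly the same place, while their GC content over 250 bases was 58.0% in EREG, 65.2% in AREG and 38.0% in EPGN. These matches describe the reference sequence, and binding was not measured in these data.

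Of the 4 receptors of the family, 3 passed the filter on mean FPKM. EGFR and ERBB2 were called higher in H596, opposite in direction to EREG and AREG, and ERBB3 was called lower. Among all tested genes 18.2% were called higher and 14.2% lower, and with so few receptors these calls are a description. The FPKM of EGFR was 37.8 in H2087 and 265 in H596. The summed ligand FPKM of the gene table was thus 5.24 times that of EGFR in H2087 and 0.113 times in H596. This sum leaves out the second AREG copy, with which it was 259 in H2087 and 38.5 in H596. ERBB2, a partner receptor with no ligand of its own, had 21.9 and 52.1, and ERBB3, a partner receptor with weak kinase activity, had 28.8 and 12.2. ERBB4 was low in both libraries, at 0.0315 and 0.155, and was not called.

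Among the genes that govern shedding, 1 of 9 partner proteins was called. Of all tested genes, 18.2% were called higher and 14.2% lower in H596, so with 9 genes this count is a description. The gene that differed most encodes an inhibitor. Of 3 ADAM17 partners, which help the protease to mature and reach the surface, RHBDF1 was called, at 6.37 in H2087 and 15.9 in H596, while RHBDF2 had 9.43 and 4.86 and FRMD8 8.43 and 11.0. Of 6 tetraspanins that escort ADAM10, 5 passed the filter on mean FPKM and 0 were called, and the median difference of the 6 was 0.18. TSPAN15, the highest of them, had 74.8 in H2087 and 38.7 in H596, the opposite direction to ADAM10, and TSPAN5 was also lower in H596. TSPAN14, at 7.19 in H2087 and 14.4 in H596, TSPAN10 and TSPAN33 went in the direction of ADAM10. The difference of TSPAN17 was within counting error. TIMP3, a secreted inhibitor of metalloproteases, had 1.60 (1.46 to 1.76) in H2087 and 34.9 (34.3 to 35.6) in H596. Its level was thus 21.8-fold higher in H596. TIMP1, another inhibitor of metalloproteases, had 102 and 99.6, with overlapping intervals. TIMP2 had 17.7 and 23.4, 1.32-fold higher in H596 (1.26 to 1.38), and TIMP4 was below 1 in both. Of these 4 inhibitors 3 passed the filter on mean FPKM, and TIMP3 was the 1 called.

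Of 6 other proteases that can cut such precursors, ADAM8 and ADAM15 were called lower in H596 and RHBDL2, a rhomboid protease that can release EGF, was called higher. The FPKM of ADAM8 was 8.12 in H2087 and 0.811 in H596, that of ADAM15 112 and 53.5, and that of RHBDL2 1.78 and 11.7. ADAM9 had 97.7 and 92.5 and was therefore above both ADAM10 and ADAM17 in each library. The 7 negative regulators of the receptor gave 1 call in each direction. ERRFI1, which encodes the EGFR inhibitor MIG6 and is known to be induced by EGFR signalling, had 405 (401 to 408) in H2087 and 10.0 (9.56 to 10.5) in H596, 40.4-fold lower (38.5 to 42.4). CBLB, a ubiquitin ligase, had 3.85 and 9.71. Of all 42 genes of these lists and of those on neuregulins, proprotein convertases and ligand trafficking, 36 passed the filter on mean FPKM. Of these 36, 9 were called higher and 4 lower in H596, against 18.2% and 14.2% of all tested genes. The 9 include NRG4 and PCSK5, which had 0 counts in H2087 and passed the filter only through H596. The median difference of the 42 was 0.17, beside 0.12 for all tested genes.

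**Figure D4:**
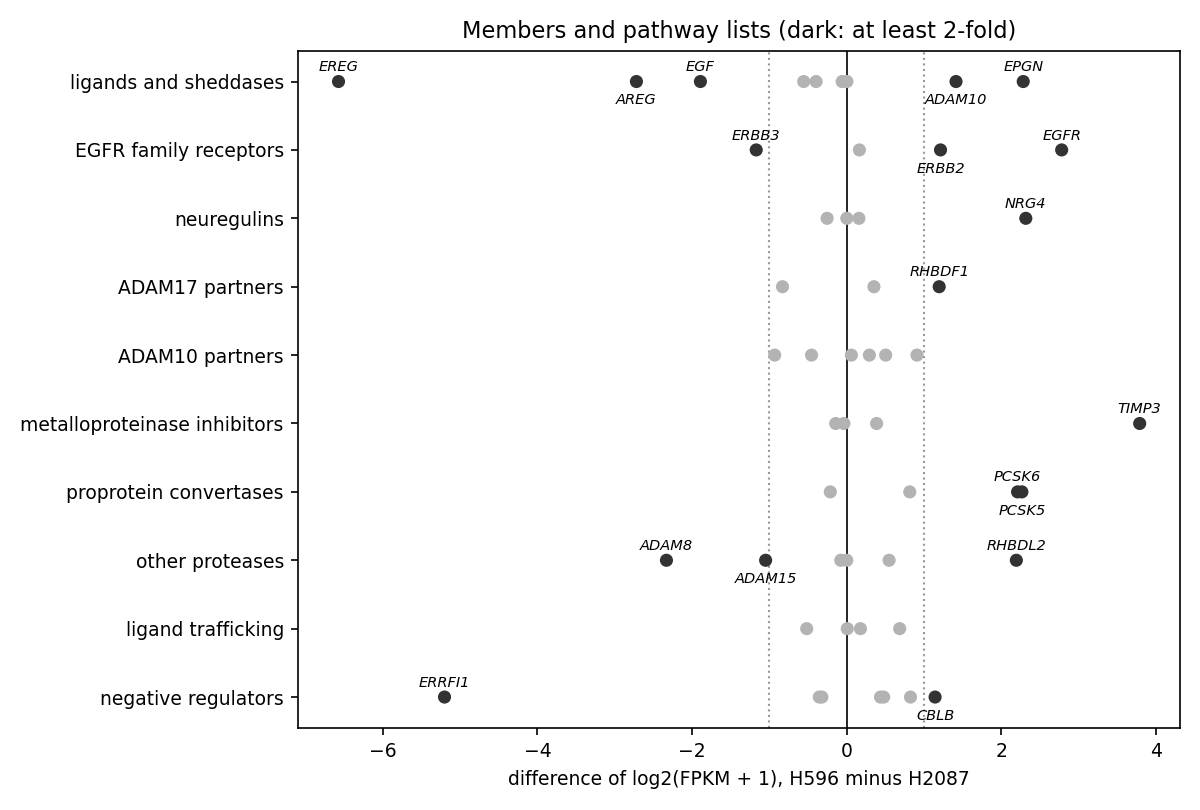
Difference of log2(FPKM + 1), H596 minus H2087, of the 9 members and of 42 pathway genes in 9 lists, 1 point per gene. Genes that differ at least 2-fold (beyond the dotted lines) are dark and named; EREG and ERRFI1 lie farthest to the left at -6.57 and -5.20, and TIMP3 and EGFR farthest to the right at 3.79 and 2.78.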

How the data were processed

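RNA-seq data of 1 H2087 and 1 H596 library were used. Per the labels, the authors made stranded mRNA libraries from total RNA and processed the reads with Trimmomatic, HISAT2 2.0.5 and StringTie 1.3.3b on hg19 (GRCh37). For each gene and transcript the authors gave an estimated count, listed as a whole number; how it was rounded is not stated. The authors also gave FPKM, scaled by them to the length of the transcript and the size of the library, and it was used as it stands.

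The difference between libraries was taken as log2(FPKM + 1) in H596 minus that in H2087, and one of at least 2-fold was called where the FPKM of a gene averaged 1 or more. Where a symbol had several rows, the larger was kept. With 1 library per line no p-value was computed. Levels have 95% Wilson intervals of the share of counts, and ratios have exact conditional binomial (Clopper-Pearson) intervals of the counts, scaled to FPKM (scipy 1.17.1); a count of 0 allows 3 counts. Both cover counting error only. The calls and intervals were tested on simulated data. Alternatives were TPM, TMM scaling (edgeR 4.0.16), transcript values, centring, a pseudocount of 0.1 and other filters on mean FPKM. Members, gene lists and motifs were chosen with earlier results of these data known. All 9 members, the listed pathway genes called at least 2-fold and 5 genes on each side of the chromosome 4 cluster were named by rule. Other genes (RHBDF2, FRMD8, TSPAN5, TSPAN10, TSPAN14, TSPAN15, TSPAN17, TSPAN33, TIMP1, TIMP2, TIMP4, ADAM9, ERBB4, NRG1, FURIN, NKD2, IAH1) were named after their values were seen. EGF-like stretches were found by the spacing of 6 cysteines and protease stretches by that of histidines, in canonical GENCODE transcripts. Python 3.11.15 was used.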

Additional observations from a re-analysis of the deposited data

Results flagged for a closer look

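Reads given to the copy of AREG at 75480591 to 75490485 are left out of the gene table, although they lie far above the 3 counts that a count of 0 allows. This copy held 3729 counts in H2087 and 625 in H596. Whether these reads are the same as those of the listed copy was not tested.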

How the results depend on the processing

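EREG, AREG and EGF stayed at least 2-fold lower and EPGN and ADAM10 at least 2-fold higher in H596 under all 6 alternatives that gave a value for each member, when the filter on mean FPKM is set aside. The differences ranged from -9.34 to -6.57 for EREG, -2.85 to -2.60 for AREG and -3.80 to -1.33 for EGF. Those of EPGN ranged from 1.17 to 4.98 and those of ADAM10 from 1.28 to 1.61. Of the 54 values over all members, 0 reversed a call, which only values of called members could do. Among the 54, 19 differed from the main value by more than counting error. HBEGF, at -0.12 to 0.15, and ADAM17, at -0.19 to 0.12, had no stable direction. The number of members called higher, 2, was 1 with the highest single transcript and 1 with a mean FPKM of at least 10, because EPGN then failed the filter; a mean FPKM of at least 10 also took the number called lower from 3 to 2, because EGF failed it. The summed ligand difference, -2.69, was -2.82 with TMM scaling, -2.53 with TPM, -2.80 with centring and -3.13 with the highest single transcript. The AREG share of the summed ligand FPKM, 37.9% in H2087 and 35.2% in H596, was 52.5% and 49.7% over all transcripts and loci and 39.9% and 51.3% with the highest single transcript. Of the estimated counts, which are not relative to length, it was 14.7% and 16.2%. TMM scaling moved the median of all genes from 0.12 to -0.0028, and the share of calls that were higher in H596 from 56.2% to 48.8%; 0 member calls changed. Depth limits EREG and EGF in H596 and EPGN in H2087, which rest on 15, 45 and 4 counts. No paired analysis was possible because H2087 and H596 have 1 library each, and so none could be left out.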

Other observations

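Genes for other ligands of the receptor family and for the enzymes that trim precursors gave these values. NRG4, a neuregulin that binds ERBB4, had 0 counts in H2087 and an FPKM of 3.98 from 493 counts in H596, at least 139-fold higher when 3 counts are taken as the limit in H2087. NRG1, which binds ERBB3 and ERBB4, had an FPKM of 2.86 and 2.23 and was not called. Of the 4 neuregulins 2 passed the filter on mean FPKM, and NRG4 was the 1 called, against 18.2% of all tested genes called higher in H596. NRG4 passed only through H596, and a gene with 0 counts in 1 line that passes this filter is always called. Proprotein convertases are a class of proteases that removes propeptides from ADAM proteases. Of the 4 listed, PCSK5 and PCSK6 were called higher in H596, against 18.2% of all tested genes, and with 4 genes this count is a description. PCSK5 had 0 counts in H2087 and an FPKM of 3.80 in H596, at least 403-fold higher by the same limit, and PCSK6 had 2.27 and 14.1. The call of PCSK5 followed from the filter in the same way as that of NRG4. FURIN, the best known member, was 1.17-fold lower in H596 and was not called. Of 4 genes that help to move ligand precursors to the surface, 0 were called by this rule, which gives no p-value with 1 library per line, and their median difference was 0.09.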
